A study of Mus musculus with 2 samples.

Results

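The 3 genes described here form the octamer system of lymphoid cells: Pou2f1 and Pou2f2, which encode the transcription factors Oct-1 and Oct-2, and Pou2af1, which encodes their coactivator OBF-1 (also called OCA-B or Bob.1). They were taken by name from the GENCODE vM21 annotation of mm10, so that all 3 were found, out of 21938 annotated protein-coding genes. Each locus spanned the gene body and the 20 kb beyond both of its ends, and a peak belonged to the locus if its midpoint lay there. The 3 loci held 30 of the 42454 peaks of replicate 1 and 39 of the 60683 peaks of replicate 2.

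Open chromatin had been mapped by DNase-seq, in which the nuclease DNase I cuts accessible DNA and the cut sites are sequenced. The samples formed 1 group: whole spleen from females of the B6CASTF1/J hybrid, a cross of C57BL/6 with CAST, at an age of 36 days, with 2 libraries labelled as biological replicates. The labels describe differently numbered females but carry the same donor entry, so part of the difference between the libraries may be technical. With 1 group there was no contrast to test, and each value is given for both libraries, with the mean ± SD (n = 2) where it helps. In whole tissue, a site open in fewer cells and a site less open in each cell cannot be told apart.

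Oct-1 and Oct-2 bind DNA through a POU domain and their best known site is the octamer ATGCAAAT of immunoglobulin promoters and enhancers, histone genes and small nuclear RNA genes. Oct-1 is made in nearly all cells, whereas Oct-2 is found mainly in B cells and some neurons. OBF-1 does not bind the octamer by itself but docks on the POU domain and the DNA together, and mice without it form no germinal centres. The spleen holds large numbers of follicular and marginal zone B cells, in which all 3 genes are known to be active.

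The sequences of the chromatin open at or near the start sites come first, because the later values refer to them. Each is the stretch, free of annotated exons, that a peak of replicate 1 and a peak of replicate 2 had in common, read 5′ to 3′ on the strand of the gene from the RefSeq assembly GRCm38.p6, which has the coordinates of mm10. Capitals mark bases that lay in footprints of both libraries, a footprint being a short stretch protected from cutting inside open chromatin, called by the authors at a false discovery rate (FDR) of 0.01. The reference is that of C57BL/6, and the CAST copy was not examined.
Pou2f1, upstream of the main start site, chr1:166002679-166002959, minus strand: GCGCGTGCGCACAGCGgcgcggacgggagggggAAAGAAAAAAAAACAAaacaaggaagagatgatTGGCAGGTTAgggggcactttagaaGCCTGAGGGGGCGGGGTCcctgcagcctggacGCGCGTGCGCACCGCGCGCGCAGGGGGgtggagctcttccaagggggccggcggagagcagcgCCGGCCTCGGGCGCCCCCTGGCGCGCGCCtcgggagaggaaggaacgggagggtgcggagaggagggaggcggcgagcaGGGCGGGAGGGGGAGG
Pou2f1, internal start sites, chr1:165935021-165935240, minus strand: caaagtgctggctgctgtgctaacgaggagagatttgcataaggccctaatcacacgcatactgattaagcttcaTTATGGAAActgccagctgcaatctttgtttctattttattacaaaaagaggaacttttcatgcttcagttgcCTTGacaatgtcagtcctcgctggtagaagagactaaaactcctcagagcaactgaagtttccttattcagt
Pou2f2, upstream of the main start site, chr7:25132513-25132620, minus strand: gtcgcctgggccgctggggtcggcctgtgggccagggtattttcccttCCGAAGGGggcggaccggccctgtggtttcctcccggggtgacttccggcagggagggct
Pou2f2, second peak at the main start site, chr7:25133161-25133380, minus strand: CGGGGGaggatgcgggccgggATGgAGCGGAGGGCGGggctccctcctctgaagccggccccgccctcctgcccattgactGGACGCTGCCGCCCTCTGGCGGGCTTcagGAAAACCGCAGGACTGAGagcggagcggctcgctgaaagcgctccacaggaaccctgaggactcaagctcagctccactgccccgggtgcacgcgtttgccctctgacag
Pou2f2, intronic peak downstream of the main start site, chr7:25129681-25129920, minus strand: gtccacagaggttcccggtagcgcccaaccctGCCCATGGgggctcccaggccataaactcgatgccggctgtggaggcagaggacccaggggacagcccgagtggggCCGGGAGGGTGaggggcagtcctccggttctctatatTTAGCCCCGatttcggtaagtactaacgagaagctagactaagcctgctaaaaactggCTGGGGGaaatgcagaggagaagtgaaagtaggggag
Pou2af1, upstream of the main start site, chr9:51213501-51213707, plus strand: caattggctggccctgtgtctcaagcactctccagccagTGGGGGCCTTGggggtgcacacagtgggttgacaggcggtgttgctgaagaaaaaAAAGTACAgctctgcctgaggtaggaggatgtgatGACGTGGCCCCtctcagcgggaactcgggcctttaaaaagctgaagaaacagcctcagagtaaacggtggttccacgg
Pou2af1, second peak at the main start site, chr9:51213121-51213320, plus strand: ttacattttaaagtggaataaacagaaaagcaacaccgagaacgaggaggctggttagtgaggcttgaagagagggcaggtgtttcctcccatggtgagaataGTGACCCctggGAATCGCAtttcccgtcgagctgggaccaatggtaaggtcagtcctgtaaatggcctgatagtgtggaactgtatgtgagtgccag
The 281 bases of Pou2f1 carried 132 capitals, against 8 of 108 bases for Pou2f2 and 30 of 207 for Pou2af1. At all 3 genes these counts leave out shared footprints of the same peak that lie beyond the printed stretch. In the second stretches printed for Pou2f2 and Pou2af1, upstream of their main starts, 65 of 220 and 15 of 200 bases were capitals. The peaks also differ in signal, as given below. In the Pou2f1 stretch the run GCGCGTGCGCAC stood in capitals at 2 places, chr1:166002948-166002959 and chr1:166002825-166002836. It was picked out after the sequences had been seen, as 1 of the 2 longest runs (12 bases) that recurred among the protected bases of the 3 loci. Within 100 bases of the midpoint, 0.160% of all peaks of replicate 1 and 0.117% of those of replicate 2 held it on either strand.

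Pou2f1 had the strongest start site of the 3 genes. The gene lies on the minus strand of chromosome 1 (ENSMUSG00000026565.18, chr1:165865154-166002678, 137525 bases, 18 transcripts with 14 distinct start sites). Its main start site, taken for each gene as the most upstream start of a transcript in the basic annotation, is at 166002678. The peak there (chr1:166002641-166003060) had a signal, the authors' own value per peak on a scale not given in the sources used here, of 9.59 in replicate 1 and 13.8 in replicate 2. It ranked 1714 among the 42454 peaks of replicate 1 and 1829 among the 60683 of replicate 2, that is, in the top 4.04% and 3.01%. The lowest FDR of the deposited cut rate track in this peak was 3.51e-131 and 1.53e-268. A second peak with its midpoint 732 bases upstream (chr1:166003281-166003540) had signals of 8.76 and 10.8 and ranked 2244 and 3068. It lay in an intron of Gm26665, a noncoding RNA gene that starts at 166002960 on the opposite strand, so the open chromatin between them belongs to both genes by position.

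The peak at the Pou2f1 main start site held 9 footprints in each library, and all 9 of replicate 1 recurred in replicate 2 with an overlap of at least 50% of the shorter footprint. The upstream peak held 7 footprints in replicate 1 and 6 in replicate 2, of which 6 were shared. No other peak of the 3 loci held more than 6 in either library. Within 2 kb downstream of the start there were 4 weaker peaks in replicate 1 and 2 in replicate 2, and the strongest of them (chr1:166001201-166001460) had signals of 2.34 and 2.67.

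Pou2f1 also had an internal group of 4 annotated start sites between 165934900 and 165935011, downstream of the main one, and 2 peaks lay within 500 bases of each of them in both libraries. The first (chr1:165935001-165935260) had signals of 1.41 and 2.17 and ranked 20925 and 17610. The other (chr1:165934601-165934820) had signals of 1.90 and 1.97 and ranked 16218 and 19146. Both peaks were called in both libraries, but of the 4 sites 165935011 alone lay inside one, in replicate 1 only. The 2 peaks stood at 49.3% and 38.2% from the top of the ranking in replicate 1 and at 29.0% and 31.6% in replicate 2. The peak at the main start site and the one upstream of it were in the top 5.29% in each library. The lowest FDR in the cut rate track within 500 bases of the internal sites was 5.04e-16 and 9.23e-32.

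The groups also differed in base composition. The ratio of observed to expected CpG dinucleotides within 500 bases was 0.957 to 0.986 at the 7 start sites of the main group, and 0.164 to 0.189 at the internal group. Over all 21938 protein-coding genes the median was 0.552, with quartiles of 0.218 and 0.768. In all, 11 of the 14 Pou2f1 start sites had a peak within 500 bases in each library. The other 3, at 165880160, 165892119 and 165913283, belong to transcripts annotated as incomplete at the 5′ end or as retaining an intron, and the cut rate track lists no run there in either library.

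Pou2f2 had less signal at its main start site than Pou2f1 but more peaks across its body. It lies on the minus strand of chromosome 7 (ENSMUSG00000008496.19, chr7:25087344-25179726, 92383 bases, 10 transcripts, 5 start sites). The peak over its main start sites, 25132477 to 25132512 (chr7:25132421-25132620), had signals of 4.38 and 5.79 and ranked 7439 and 7301. A second peak with its midpoint 758 bases upstream (chr7:25133141-25133400) had signals of 3.79 and 5.10 and ranked 8573 and 8258. Both peaks were therefore called in both libraries, in the top 20.2% of replicate 1 and the top 13.6% of replicate 2. The main peak held 2 footprints in replicate 1 and 4 in replicate 2, and the second held 6 and 5. The lowest FDR in the cut rate track at the main peak was 4.48e-20 and 2.66e-41.

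The strongest Pou2f2 peaks inside the gene were not at the main start. An intronic peak 2722 bases downstream of it (chr7:25129661-25129920) had signals of 4.93 and 8.76 and ranked 6482 and 4309. Next to an internal start site at 25120858, whose transcript is annotated as incomplete at the 5′ end, a peak (chr7:25120541-25120760) had signals of 4.54 and 7.82 and ranked 7149 and 5041. A further intronic peak (chr7:25105901-25106100), 26512 bases downstream of the main start, had signals of 4.16 and 3.79. In replicate 2 the first 2 of these exceeded the peak at the main start, and in replicate 1 they exceeded it by a smaller margin. The highest signal in the locus, 8.39 and 17.4 with ranks of 2528 and 855, was that of a peak in an exon of the neighbouring zinc finger gene Zfp574, within 500 bases of one of its annotated start sites (chr7:25076881-25077180).

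All 5 Pou2f2 start sites had a peak within 500 bases in both libraries. The most upstream one, at 25179726, belongs to a transcript that retains an intron; its peak (chr7:25179601-25179820) had signals of 1.65 and 2.19. CpG content differed along the gene as well: the ratio was 0.384 to 0.395 at the 3 main start sites and 0.807 at the upstream one.

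Pou2af1, the coactivator gene, had its reproducible open chromatin at 1 place. It lies on the plus strand of chromosome 9 (ENSMUSG00000032053.8, chr9:51213708-51240080, 26373 bases, 2 transcripts, 2 start sites). The peak at its main start site, 51213708 (chr9:51213481-51213740), had signals of 4.17 and 6.82 and ranked 7788 and 6025. A second peak 488 bases upstream (chr9:51213101-51213340) had signals of 2.86 and 5.25 and ranked 11282 and 8053. The first held 6 footprints in replicate 1 and 4 in replicate 2, the second 3 and 2. The lowest FDR in the cut rate track at the start was 1.39e-25 in replicate 1 and 4.68e-118 in replicate 2. The CpG ratio of 0.311 was below the median of all genes, as at the main start of Pou2f2. The other start site, at 51233143, belongs to a transcript incomplete at the 5′ end and had no peak in either library.

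The remaining 5 peaks of the Pou2af1 locus were called in replicate 2 alone, with signals between 0.472 and 0.820. Replicate 1 thus had 0 peaks inside the gene body by midpoint, and replicate 2 had 4. Of these, 2 lay near the start of Gm47828, a noncoding RNA gene inside an intron of Pou2af1, and 2 that overlapped each other lay at chr9:51225543-51225900, in an intron. In the longer, less strict peak list of replicate 1 there were peaks at 2 of the 5 places, with signals of 0.644 and 0.696. The lowest FDR there in replicate 1 was 0.0134 and 0.0126. When replicate 2 was cut to its 42454 strongest peaks, the number of peaks of replicate 1, the Pou2af1 locus held 3 peaks in it, against 2 in replicate 1.

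**Figure D1:**
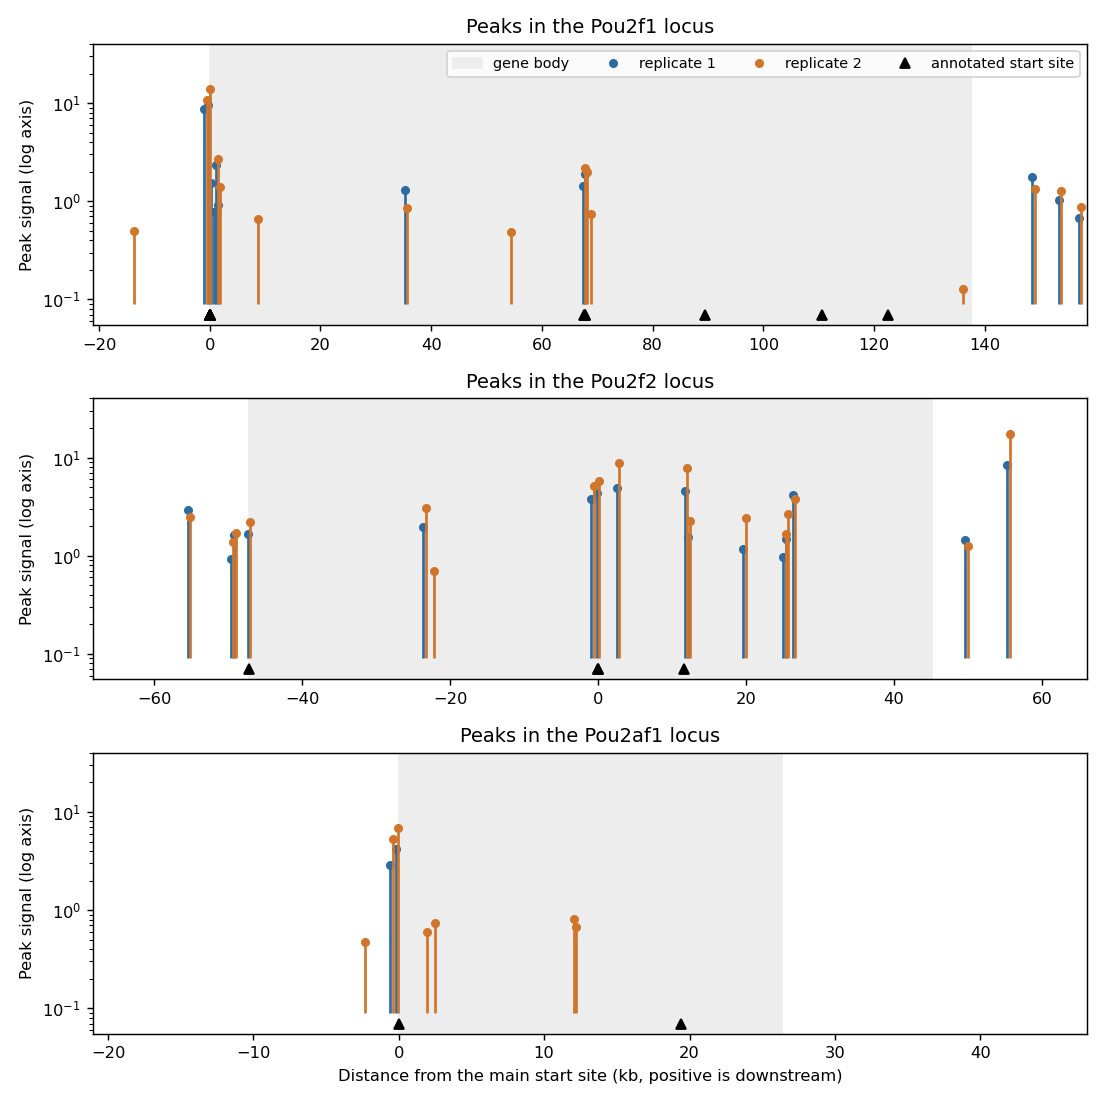
Peak signal (log axis, no unit given by the authors) against the distance of the peak midpoint from the main start site (kb, downstream positive) in the loci of Pou2f1, Pou2f2 and Pou2af1; blue and orange points are replicates 1 and 2, drawn slightly apart, grey is the gene body and triangles are annotated start sites. The highest Pou2f1 points, 9.59 and 13.8, stand at its main start, Pou2f2 peaks of both libraries are spread along the gene, and the Pou2af1 peaks away from its start are all orange.

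**Figure D2:**
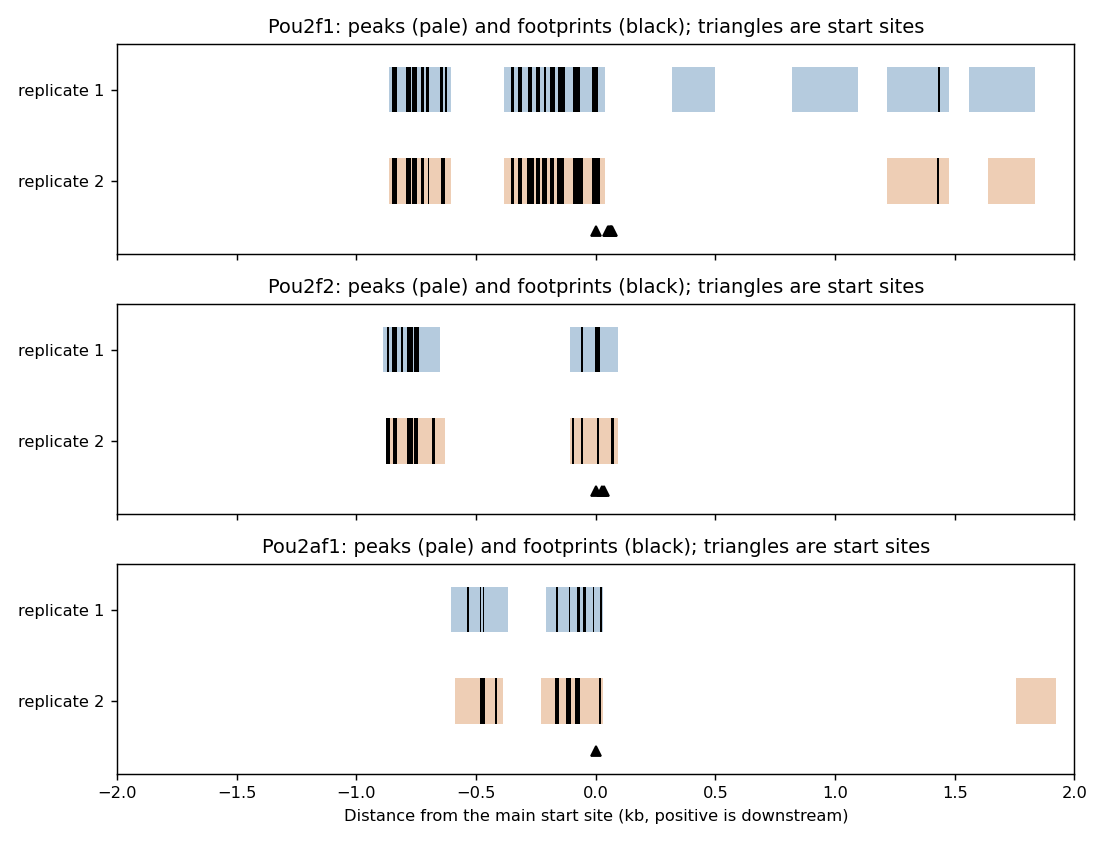
Peaks (pale bars) and footprints inside them (black) within 2 kb of the main start site of each gene, by library; the horizontal axis is the distance from that site (kb, downstream positive) and triangles are annotated start sites. Each gene has a peak at the start and a second one upstream in both libraries, and the Pou2f1 pair carries the densest footprints.

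A peak within 500 bases of a start site was thus present for 3 of 3 genes in both libraries, beside 53.8% (replicate 1) and 57.2% (replicate 2) of all protein-coding genes. All 3 genes also had 2 or more peaks within 1 kb of a single start site, as did 23.6% (replicate 1) and 28.5% (replicate 2) of protein-coding genes. These counts describe the 3 genes alone.

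In the shorter, stricter lists the Pou2f2 locus held the most peaks in both libraries and the Pou2af1 locus the fewest, and the libraries differed most for Pou2af1. The Pou2f1 locus held 12 peaks in replicate 1 and 15 in replicate 2, a mean of 13.5 ± 2.12 (SD, n = 2). The Pou2f2 locus held 16 and 17, or 16.5 ± 0.707. The Pou2af1 locus held 2 and 7, or 4.5 ± 3.54, so that its mean rests on replicate 2. With the longer lists the order of the first 2 turned: Pou2f1 held 18 and 21 peaks, Pou2f2 16 and 20, and Pou2af1 4 and 10.

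Per 10 kb of locus, Pou2f2 was the densest in both libraries, with 1.21 and 1.28 peaks. Pou2f1 had 0.676 and 0.845, and Pou2af1 0.301 and 1.05. The order of Pou2f1 and Pou2af1 was therefore opposite in the 2 libraries. The rank of Pou2f2 depended on the flank in replicate 2: with 10 kb on each side Pou2af1 had 1.51 peaks per 10 kb and Pou2f2 1.42, and with no flank 1.52 and 1.30. In replicate 1 Pou2f2 stayed ahead of Pou2af1, with 1.33 against 0.431 and 1.19 against 0. The median over all protein-coding genes was 0.336 in replicate 1 and 0.437 in replicate 2. Because short genes have a larger share of flank, each gene was also set beside the genes whose length was within 20% of its own. Of 1268 genes as long as Pou2f2, 0.315% had denser loci in replicate 1 and 4.26% in replicate 2; their median was 3 and 5 peaks. Of 915 genes as long as Pou2f1, 5.25% and 8.74% were denser. Of 2479 genes as long as Pou2af1, 63.6% were denser in replicate 1 and 19.97% in replicate 2.

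Among genes of like length, those closest in density over both libraries were Fam49b, Ppp2r5c and Abl1 for Pou2f1, Dnmt3a, Tnrc6c and Gm12216 for Pou2f2, and Ada, Poli and Mylip for Pou2af1. The measure was the absolute difference in log2 of the density plus 0.1, summed over both libraries. Dnmt3a, the closest to Pou2f2, held 17 and 18 peaks, and Ada, the closest to Pou2af1, held 2 and 7, the same numbers as Pou2af1 itself. The likeness is one of peak density alone.

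**Figure D3:**
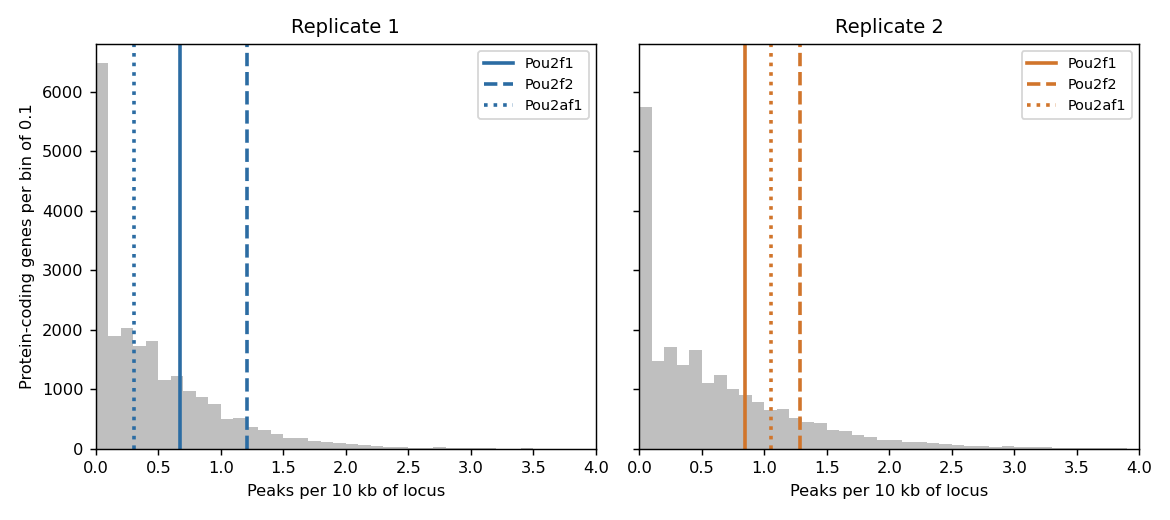
Number of protein-coding genes (vertical axis) by peaks per 10 kb of locus (horizontal axis, bins of 0.1, shown up to 4) in replicate 1 (left) and replicate 2 (right); vertical lines mark the 3 genes. Pou2f2 stands farthest right in both, at 1.21 and 1.28, while Pou2af1 moves from 0.301, left of Pou2f1, to 1.05, right of it.

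Across the 3 loci, 28 of the 30 peaks of replicate 1 (93.3%) overlapped a peak of replicate 2, and 28 of the 39 peaks of replicate 2 (71.8%) overlapped one of replicate 1. Over the whole genome the shares were 93.8% and 65.7%, so the loci were close to the background in this respect. By gene, 10 regions of Pou2f1, 16 of Pou2f2 and 2 of Pou2af1 were open in both libraries. Of the 11 peaks called in replicate 2 alone, 5 belonged to Pou2f1, 1 to Pou2f2 and 5 to Pou2af1. These were weak: their ranks ran from 39320 to 60560, and 9 of the 11 ranked past 42454, the number of peaks that replicate 1 has. In the longer list of replicate 1, 4 of the 11 places had a peak, and its cut rate track listed a run at 6 of them.

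**Figure D4:**
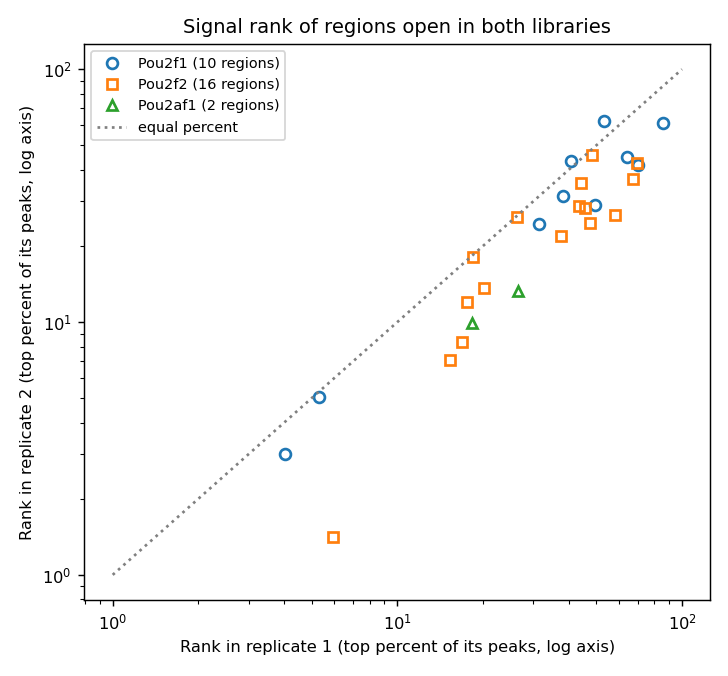
Signal rank of the 28 regions open in both libraries, as the top percent of all peaks of replicate 1 (horizontal) and of replicate 2 (vertical), both on log axes; circles are Pou2f1, squares Pou2f2, triangles Pou2af1, and the dotted line marks equal percent. The points at the lower left are the peak at the Pou2f1 main start, at 4.04% and 3.01%, the one upstream of it, at 5.29% and 5.06%, and the peak near a start site of Zfp574 in the Pou2f2 locus, at 5.95% and 1.41%.

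Footprints were read inside the peaks of their own library. Pou2f1 peaks held 28 in replicate 1 and 40 in replicate 2, Pou2f2 peaks 44 and 61, and Pou2af1 peaks 9 and 13. Stronger peaks hold more footprints: the mean per peak fell from 4.91 in the strongest of 10 equal classes of signal to 0.837 in the weakest in replicate 1, and from 4.82 to 1.40 in replicate 2. Peaks from the same classes of signal as those of Pou2f1 would hold 30.5 and 41.6 at these means, those of Pou2f2 47.7 and 62.3, and those of Pou2af1 7.36 and 18.6. The counts of Pou2f1 and Pou2f2 were thus within 4 footprints of that level in both libraries, and Pou2af1 lay above it in replicate 1 and below it in replicate 2. Of the 81 footprints of replicate 1 in the 3 loci, 81.5% were shared with replicate 2, and of the 114 of replicate 2, 59.6% were shared with replicate 1. For footprints inside peaks over the whole genome, the shares were 68.6% and 40.7%. Unlike the counts above, these shares were not matched for peak signal.

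Whether the octamer genes carry their own site in open chromatin was asked by searching for ATGCAAAT on both strands within 100 bases of each peak's midpoint. In the 3 loci 1 of 30 peaks of replicate 1 (3.33%) and 2 of 39 of replicate 2 (5.13%) held it, against 1.78% of all peaks of replicate 1 and 1.95% of those of replicate 2. Counts of 1 and 2 peaks are too few to read against these shares. Both matches were in Pou2f1. The first lay near its internal start sites, in a peak of both libraries, and the other in a weak intronic peak of replicate 2, which had a signal of 0.482 and ranked 55076. The first match is at chr1:165935201-165935208 upstream of the internal start sites and the other at chr1:165948378-165948385. Neither was overlapped by a footprint, and the octamer was found in 0 of the 81 and 0 of the 114 footprints of the loci, searched with 5 bases on either side. In all footprints, inside peaks or not, it was found in 0.174% and 0.193%.

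Sites with 1 mismatch were looked at because POU factors also bind variants of the octamer. Such a site, or an exact one, lay within 100 bases of the midpoint of 11.5% of all peaks in replicate 1 and 12.3% in replicate 2. In locus peaks this window held 5 and 6 such matches for Pou2f1, 0 in both libraries for Pou2f2, and 0 and 2 for Pou2af1. These are counts of matches, not of peaks. Of all footprints, inside peaks or not, 0.871% and 0.898% held one, with 5 bases added on either side. The overlaps listed here need not hold the whole site and are not set against that share. The 3 variants in this window of a peak of the 3 loci that a footprint overlapped in 1 library or both are shown with the 2 exact matches. Another variant, upstream of the Pou2af1 main start, lies outside the peak and outside this window, and is shown because a footprint of replicate 2 overlapped it. Each is read 5′ to 3′ on the strand that carries the octamer, with the octamer or its variant in capitals and bases on either side in lower case.
Pou2f1 internal start sites, exact, chr1:165935191-165935218, plus strand: ttagggccttATGCAAATctctcctcgt
Pou2f1 intron, exact, chr1:165948368-165948395, plus strand: cttaaattggATGCAAATaagccaggtg
Pou2f1 peak upstream of the main start, chr1:166003367-166003394, minus strand: attagctcggATTCAAATttaaagcggg
Pou2f1 internal start sites, downstream peak, first variant, chr1:165934651-165934678, plus strand: tgctgttgccTTGCAAATgctttcctcc
Pou2f1 internal start sites, downstream peak, second variant, chr1:165934750-165934777, minus strand: cagcgttaatATGGAAATagcatgtgtg
Pou2af1 upstream of the main start, chr9:51213448-51213475, plus strand: ccgtggctgtGTGCAAATggccttggcc
With positions counted from 1 at the 5′ end of the octamer, the variants in this order are G3T, A1T, C4G and A1G. G3T, in the peak upstream of the Pou2f1 main start, was the 1 variant overlapped by a footprint in both libraries, in replicate 2 in part. The A1T site was overlapped in part in replicate 1 and the C4G site in part in replicate 2. The A1G site of Pou2af1 was overlapped by a footprint in replicate 2 that was not counted among the footprints in peaks. No exact match and no variant fell in a Pou2f2 peak within this window, which says only that these letters are not there.

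Of 16 motifs searched in the footprints of the loci, that of the SP family was the most frequent in both libraries, followed by that of EBF1. The footprints of the loci lay inside peaks, whereas the shares over all footprints, here and below, include those outside peaks. The letters GGGCGG, the core of sites for factors of the SP family, were found in 15 of 81 footprints of replicate 1 (18.5%) and 17 of 114 of replicate 2 (14.9%), against 11.1% and 8.36% of all footprints. Of these, 5 and 6 lay in the Pou2f1 locus, 10 and 11 in that of Pou2f2 and 0 in that of Pou2af1. The letters CCCNNGGG, the core of sites for EBF1, the factor that specifies B cells, were found in 5 (6.17%) and 8 (7.02%), against 1.81% and 1.97% of all footprints. They occurred at all 3 genes: in the peak at the Pou2f1 main start, in the Pou2f2 peaks at the internal start and 2722 bases downstream of the main start and in an intergenic one upstream of the gene (chr7:25181941-25182123), and in the second peak at the Pou2af1 start, in footprints of both libraries. This sequence is a palindrome rich in G and C, and GC content was not matched in these shares.

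The CTCF motif was found in 4 footprints of the loci in each library, 4.94% and 3.51%, against 3.80% and 2.64% of all footprints. CTCF is the factor that bounds chromatin loops. The motif was added after the footprint sequences had been seen. The footprints, with 5 bases on either side, are printed on the strand that carries the motif, the matching bases in capitals, because both libraries protect the same match.
Intron of Cd247, beyond the 3′ end of Pou2f1, chr1:165853903-165853939, plus strand: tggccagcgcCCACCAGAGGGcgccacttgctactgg
Pou2f2, second peak at the main start, chr7:25133269-25133304, plus strand: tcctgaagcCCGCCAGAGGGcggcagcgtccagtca
Upstream of Pou2f2, nearer peak, chr7:25181602-25181632, minus strand: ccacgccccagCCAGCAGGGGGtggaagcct
Upstream of Pou2f2, farther peak, chr7:25187838-25187877, minus strand: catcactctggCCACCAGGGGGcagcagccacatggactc
All 4 lay in peaks of both libraries. Of the 3 at Pou2f2, 1 was in the second peak, upstream of the main start, and 2 were intergenic, upstream of the whole gene. The farthest peak (chr7:25187761-25187940) had signals of 2.89 and 2.49, and the Cd247 peak (chr1:165853821-165854020) signals of 1.77 and 1.35. The nearer intergenic peak (chr7:25181521-25181740) had signals of 1.61 and 1.71.

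The letters TGACGT, part of a site bound by factors of the CREB and ATF family, stood in a footprint of both libraries at the Pou2af1 main start and in another in the Zfp574 peak of the Pou2f2 locus. They were in 1.19% and 0.985% of all footprints. The letters of ETS (CCGGAAG), PU.1 (GAGGAAGT), IRF (GAANNGAAA), YY1 (AANATGGCG) and MEF2 (CTATTTATA) sites, of AP-1 sites (TGANTCA) and of those of the erythroid GATA factors, which read AGATAA, were found in 0 footprints of the loci in either library. In all footprints each of these was found in at most 1.41% in replicate 1 and 1.15% in replicate 2. The NFY letters CCAAT were found in 3 and 5 footprints of the loci, 3.70% and 4.39%, against 3.52% and 2.98% of all. The E2A letters CAGGTG were found in 2 and 1, against 1.96% and 1.92% of all footprints. The RUNX letters TGTGGTT were found in 1 of replicate 1 and 0 of replicate 2, against 0.606% and 0.768% of all. The NF-kB letters GGGANTTCC were found in 2 and 0, against 0.197% and 0.176% of all. The 2 are neighbouring footprints in the Pou2f2 peak at the internal start and, with the added bases, hold the same 1 match.

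Several other genes lie in these loci. Cd247, which encodes the zeta chain of the T cell receptor complex, overlaps the 3′ end of Pou2f1 on the opposite strand and had a start site peak in replicate 2 alone. Of the noncoding genes near Pou2f1, Gm26665 and Gm37469 had one in both libraries, Gm37856 in replicate 2 alone and the pseudogene Gm17976 in neither. At Pou2f2, Zfp574 had one in both libraries, D930028M14Rik in replicate 2 alone, and Grik5, a glutamate receptor gene, and Mir6537 in neither. Gm47828 inside Pou2af1 had one in replicate 2 alone. Peaks of the flanks and of overlapping genes count toward a locus by position, so they need not belong to the octamer gene.

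The other genes of the octamer system were compared from lists. Of 13 further genes found in the annotation that encode POU factors or related coactivators, 3 had a start site peak in replicate 1 and 5 in replicate 2, against 53.8% and 57.2% of all protein-coding genes. The 3 with a peak in both libraries were Pou4f1, a sensory neuron factor, Pou6f1, and Colca2. Pou2f3, the closest relative of Oct-1 and Oct-2 and the factor of tuft cells, had a start site peak in replicate 2 alone, although its locus held 7 peaks in replicate 1 and 6 in replicate 2. Of Pou3f1, Pou3f2, Pou3f3, Pou3f4, Pou4f2, Pou4f3 and Pou1f1, factors mostly of neural and pituitary cells, Pou3f1 alone had any peak in its locus, 1 in replicate 2. Pou5f1, the pluripotency factor Oct-4, had 2 and 3 peaks in its locus but none at its start.

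The listed partners of the octamer factors, Siah1a, Siah2, Snapc1, Snapc4, Hcfc1 and Tbp, all had start site peaks in both libraries (6 of 6). The share over all protein-coding genes was 53.8% in replicate 1 and 57.2% in replicate 2. Siah1a and Siah2 are ubiquitin ligases that degrade OBF-1. Snapc1 and Snapc4 are subunits of the complex that works with Oct-1 at small nuclear RNA genes. Of 8 genes that depend on Oct-2 or OBF-1 in B cells by earlier literature, 7 had a start site peak in replicate 1 and 8 in replicate 2. Spib, a B cell ETS factor, was the densest of them with 2.17 and 2.60 peaks per 10 kb. Cxcr5, the chemokine receptor of follicular B cells, had 1.55 and 2.22. Cd36, the exception in replicate 1, held 0 peaks there and 2 in replicate 2. The median of the list was 0.961 and 1.40, beside 0.676 and 1.05 for the 3 genes and 0.336 and 0.437 for all protein-coding genes.

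**Figure D5:**
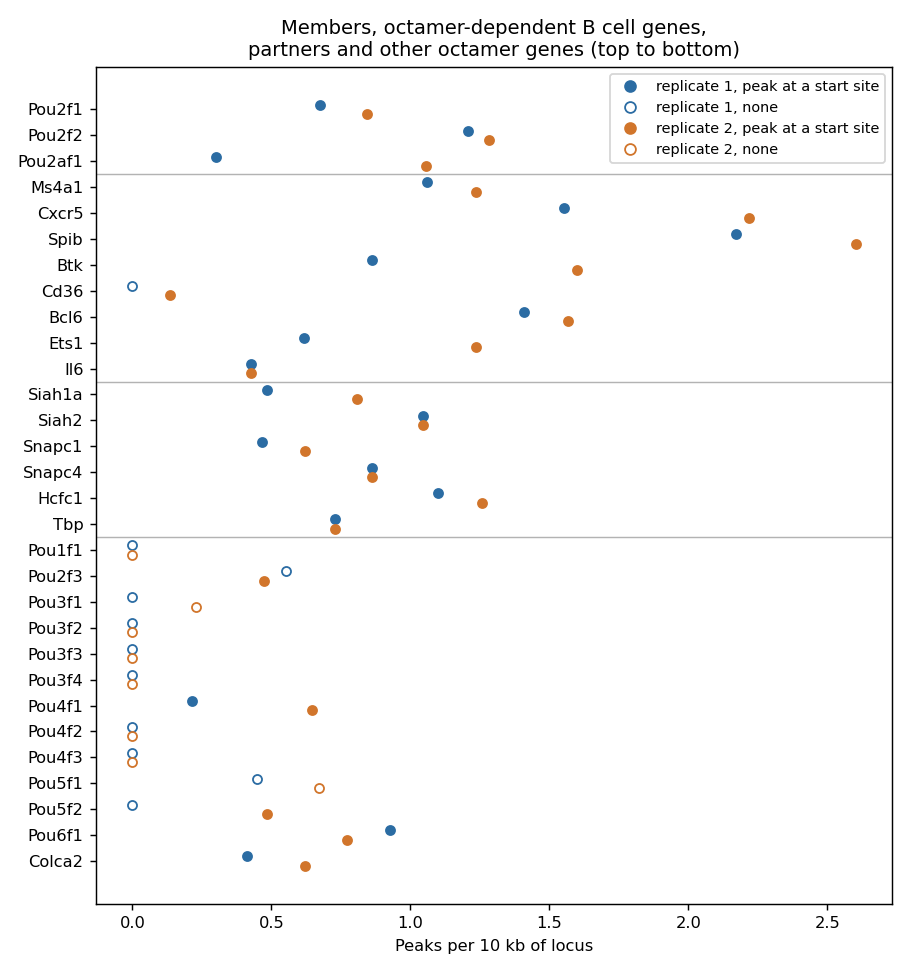
Peaks per 10 kb of locus (horizontal axis) for the 3 genes, the octamer-dependent B cell genes, the partners and the other octamer genes, from top to bottom; blue is replicate 1, orange replicate 2, and a filled point has a peak within 500 bases of a start site. The points of the first 3 groups are filled with the exception of Cd36 in replicate 1, while most of the other octamer genes are open circles at or near 0.

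The tissue label was checked against marker genes. Of 6 B cell genes, among them Ms4a1 of the list above, 6 had a start site peak in both libraries, with a median density of 1.41 and 2.08 peaks per 10 kb. Of 5 T cell genes 3 and 5 had one, of 4 erythroid genes 2 and 4, and of 3 red pulp macrophage genes 2 and 3. Among genes of liver, pancreas and neurons, 0 of 3 each had one in either library, and of 3 muscle genes Ckm had one in both. Over all protein-coding genes the share was 53.8% in replicate 1 and 57.2% in replicate 2. In replicate 1 the T cell, erythroid and macrophage counts, of few genes each, were near that share. In replicate 2 every listed gene of these cell types had a start site peak, as every B cell gene did. The part of these cell types in the open chromatin of the 3 genes was not tested.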

How the data were processed

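DNase-seq of mouse spleen, 2 libraries in 1 group, was analysed from the deposited tables. Per the readme deposited with each library, the authors derived peaks and the FDR of the cut rate from that library's alignments on mm10 without pooling. The sources used here name no aligner, caller or read depth, so counting intervals could not be given. Each deposited peak has a signal value of unstated scale, by which peaks were ranked, library by library. The deposited q-value (FDR) of the cut rate is listed for runs under 0.05, and deposited footprints carry an FDR q-value of 0.01 on every line. Of the 2 peak lists per library the shorter was used, the longer as an alternative. An overlapping pair of peaks from the 2 libraries was joined into 1 region. Coordinates count from 1. Genes came from GENCODE vM21, sequences from RefSeq GRCm38.p6 through pysam 0.24.0 and samtools 1.23.1, under Python 3.11.15. Motifs were searched on either strand, in footprints plus 5 bases at each end and within 100 bases of peak midpoints. The interval and motif functions were tested on simulated data. Named were the 3 best-ranked shared peaks of each locus, peaks at its start sites, shared peaks with an octamer match, all other genes in the loci and the listed genes, of which 1 is not reported here. Other peaks, such as those with CTCF letters or called in 1 library, were chosen after their values were seen. The members and lists were chosen with earlier results of these data known. Alternatives were the longer lists, other flanks and windows, basic transcripts, equal numbers of peaks, 1 mismatch, other overlap rules and leaving out each replicate.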

Additional observations from a re-analysis of the deposited data

How the results depend on the processing

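For 20 values 117 alternatives were computed, and 98 moved the value by at most 1 SD between the libraries. Leaving out 1 of 2 libraries cannot move a mean by more than that SD, so those alternatives were bound to be among the 98. Where the libraries differed widely, as for the peaks of Pou2af1 (SD 3.54), large moves were counted too. The 98 is therefore no measure of how stable the values are. Mean peak numbers depended on the list and the flank. The Pou2f1 locus held 19.5 peaks with the longer lists, 10 with a flank of 10 kb and 8 with no flank, or 1.10, 0.635 and 0.582 per 10 kb. The Pou2f2 locus held 18, 15.5 and 11.5, and 1.36 per 10 kb with the longer lists and 1.38 with a flank of 10 kb. The order of these loci by peaks thus turned with the longer lists. Footprints in peaks came to 12.5 for Pou2f1, 39.5 for Pou2f2 and 3 for Pou2af1 with no flank, and to 15.5 for Pou2af1 with the longer lists. With basic transcripts alone, 7 Pou2f1 and 3 Pou2f2 start sites had a peak, since fewer sites were counted. With 1 mismatch allowed, octamer matches rose to 5.5 for Pou2f1 and 1 for Pou2af1. The mean of Pou2af1 rests on 1 library: it was 7 peaks without replicate 1 and 2 without replicate 2. No paired analysis was possible because there was 1 group. Of the 11 places with a peak in replicate 2 alone, 6 had a listed run of the cut rate track in replicate 1. Read depth is unknown, so whether the remaining ones were below detection there cannot be said.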

Other observations

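In the Pou2f1 locus 2 peaks were called in replicate 1 alone, both within 1 kb downstream of the main start site. At chr1:166002181-166002360 the signal was 1.52 and the lowest FDR in the cut rate track 9.22e-17. Replicate 2 had no peak there in either of its lists, although its lowest FDR at that place was 1.61e-31. At chr1:166001581-166001860 the signal was 0.770 and the lowest FDR 1.34e-07, and replicate 2 again had no peak in either list beside a lowest FDR of 8.19e-11. The absence of a peak in replicate 2 therefore did not go with an absence of listed runs.

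Footprints were also listed outside the peaks. The Pou2f1 locus held 37 in replicate 1 and 60 in replicate 2, peaks included, against 28 and 40 inside peaks. The Pou2f2 locus held 52 and 78, and the Pou2af1 locus 13 and 20. In an intron of Pou2af1, at 2 places where replicate 2 alone had a peak, replicate 1 had 2 footprints each, none of them shared with replicate 2.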
